A study of Mus musculus with 8 samples.

Results

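The genes described here are 10 members of the TGF-beta pathway: the ligands Tgfb1, Tgfb2 and Tgfb3, the receptors Tgfbr1, Tgfbr2 and Tgfbr3, the latency proteins Ltbp1 and Ltbp2, the induced matrix protein Tgfbi and the inhibitor Smad7. They were chosen by name, out of 21656 genes that the array annotation named alone on 1 row or more, and each of their 217 rows (of 641130 in all) named no other gene. A row is 1 probe set, most of which are directed at a single exon on this array type. RNA came from primary mouse embryonic fibroblasts, bought as such and grown on 100 mm dishes, that had spent 24 h under hypoxia, with oxygen at 1%, or under normoxia, with the oxygen of room air. Both groups were kept at 37 °C with 5% CO2, and 50 ng of RNA per sample was amplified, biotin labelled and hybridised to a Mouse Exon 1.0 ST array, 4 arrays per group and 8 in all. The sources used here give no strain, embryo age or number of embryos. The methods speak of biological replicates but give a higher number per condition than the labels, and the labels were followed.

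TGF-beta is a secreted growth factor that fibroblasts both make and answer. Each ligand leaves the cell folded into a latency propeptide, which latent TGF-beta binding proteins tie to the extracellular matrix, and it must be released before it can act. The free ligand brings the type II and type I receptors together, the type I receptor phosphorylates Smad2 and Smad3, and these proteins enter the nucleus with Smad4 and switch on matrix and contractile genes, while inhibitory Smads are induced and shut the signal down.

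In hypoxia Tgfb3 fell to 0.526 of its level in normoxia and was the single member that passed the test. The values of Tgfb1 and Tgfb2 were also lower in hypoxia on every array, without reaching the threshold, as were those of the latency proteins Ltbp1 and Ltbp2. Tgfbr3 and Tgfbi had higher values on every hypoxia array, again short of the threshold, and Tgfbr1, Tgfbr2 and Smad7 overlapped between the groups. The level of a gene is given throughout as the mean log2 intensity of its rows that reached the table median (2.35), a difference is hypoxia minus normoxia on this log2 scale, and a gene is called where the adjusted p of limma, a moderated linear model fitted over 18848 genes with Benjamini-Hochberg adjustment, is under 0.05. For Tgfb1, Tgfb2, Tgfbr3, Ltbp1 and Ltbp2 the level includes rows that reached the table median through only a single group, so that those rows had to differ. In RNA from whole dishes, fewer cells of a type and less RNA per cell cannot be told apart.

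The promoters of Tgfb1 and Tgfb2, ligands with lower values in hypoxia, and of Tgfbi, a matrix gene with higher values, are shown as examples of members with values on either side, marked for the DNA letters that oxygen-regulated and Smad factors are known to read. Windows from RefSeq, on GRCm38.p6, were used here for 7 of the 10 genes, and there were 9 of them. No window was used for Tgfb3, the called member, or for Tgfbr3 and Smad7, so their promoters were not searched. Each run below is the 250 bases before the annotated start, read 5′ to 3′ along the gene. Capitals mark 2 motifs, searched on both strands. The core of the hypoxia response element reads ACGTG, which is CACGT on the opposite strand, or else it has the form GCGTG, whose opposite strand reads CACGC. The Smad box reads CAGAC, and its opposite strand is GTCTG. Tgfb1 lies on the plus strand at chr7:25686752-25687001, Tgfb2 on the minus strand at chr1:186705990-186706239 and Tgfbi on the plus strand at chr13:56609336-56609585.
Tgfb1: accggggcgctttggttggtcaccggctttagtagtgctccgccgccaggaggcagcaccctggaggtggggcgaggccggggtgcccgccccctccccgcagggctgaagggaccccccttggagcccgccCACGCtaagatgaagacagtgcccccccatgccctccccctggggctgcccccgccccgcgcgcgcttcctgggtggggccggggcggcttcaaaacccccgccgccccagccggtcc
Tgfb2: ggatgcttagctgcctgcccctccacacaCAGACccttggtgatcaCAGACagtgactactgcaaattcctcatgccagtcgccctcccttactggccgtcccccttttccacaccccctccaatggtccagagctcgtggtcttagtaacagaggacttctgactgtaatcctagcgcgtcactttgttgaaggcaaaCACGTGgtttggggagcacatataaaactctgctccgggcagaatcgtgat
Tgfbi: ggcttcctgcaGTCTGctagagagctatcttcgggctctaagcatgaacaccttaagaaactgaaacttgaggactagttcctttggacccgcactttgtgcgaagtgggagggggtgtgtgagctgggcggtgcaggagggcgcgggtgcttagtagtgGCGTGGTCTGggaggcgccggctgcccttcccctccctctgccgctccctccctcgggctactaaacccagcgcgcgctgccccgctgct

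The Tgfb1 window held 1 hypoxia core, starting 118 bases before the start, and no Smad box. The Tgfb2 window held the palindrome CACGTG, in which the cores of both strands overlap, 51 bases before the start, with Smad boxes at 221 and 204 bases. The Tgfbi window held a hypoxia core at 90 bases that runs straight into a Smad box at 85 bases, and a second Smad box at 239 bases. Among the 9 windows of the members, 7 held a hypoxia core, 7 a Smad box and 5 both (those of Tgfb2 and Tgfbi, and windows of Tgfbr2, Ltbp1 and Ltbp2), and the motifs are common: 38.6% of 32851 windows of this length held the core, 42.2% the Smad box and 15.8% both. A match gives only the letters present, and no binding was measured.

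As a check on the treatment, 6 oxygen-regulated genes were read first, and all were called higher, among them Bnip3, a mitophagy protein, by 3.40 ± 0.16 (SE), and Vegfa, the endothelial growth factor, by 0.87 ± 0.11. Over all genes 100 were called higher (0.531%) and 150 lower (0.796%). The median difference of all genes was -0.19, and 75.7% of genes had lower values in hypoxia, so a small negative difference was the common case. Before adjustment p was under 0.05 for 20.4% of genes on the lower and 3.02% on the higher side. Log2 intensity had an interquartile range of 2.51 to 2.61 on hypoxia arrays and of 2.77 to 2.90 on normoxia arrays. Arrays correlated at 0.859 to 0.878 within hypoxia and at 0.923 to 0.944 within normoxia. Hypoxia arrays correlated with normoxia arrays at 0.876 to 0.906, a range that starts near the top of that within hypoxia. The reason for the lower correlations within hypoxia was not tested. Of 11 fibroblast markers none was called (before adjustment, 3 were higher and 2 lower with p under 0.05), and no marker of endothelium (8 tested), of blood (9) or of muscle (8) was called (before adjustment, 0, 2 and 4 of them were lower with p under 0.05). Of 10 epithelial markers 8 had lower values in hypoxia, 2 of them with p under 0.05 before adjustment, and 1 was called, the keratin Krt19, higher by 1.48 ± 0.17 (adjusted p = 0.0049), while the summed level of that list was 144 to 172 in hypoxia and 140 to 196 in normoxia on the linear scale, and its part in the results was not tested. Smell and pheromone receptor genes, which fibroblasts are not known to use, had a median level of 3.02, and all 10 members lay above it, which is a rough guide only, since probes differ in how well they bind.

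Among the ligands, Tgfb3, the form known for its part in palate closure, had levels of 6.11, 5.85, 6.23 and 5.83 on the hypoxia arrays, against 6.69, 7.21, 7.11 and 6.72 on the normoxia arrays. The groups did not overlap, and the highest hypoxia array lay 0.46 below the lowest normoxia array. The means were 6.01 ± 0.19 in hypoxia and 6.93 ± 0.27 in normoxia (SD, n = 4 each), a difference of -0.93 ± 0.17 (SE) with a 95% interval of -1.30 to -0.55 (limma, adjusted p = 0.04). Tgfb3 was the 153rd gene by p and had the 32nd largest decrease among the 150 genes called lower. No array could be left out without losing this call, since the adjusted p then lay between 0.061 and 0.14, while the difference stayed between -1.01 and -0.83. The call held after quantile normalization (adjusted p = 0.043) and cyclic loess (0.042). It was lost (0.058) when each array was centred on the median of its rows that named a single gene and reached the table median. Centring has this meaning throughout. It was also lost with the median of rows in place of their mean (0.08) and with a block for the replicate number (0.14). Relative ranks within each array gave an adjusted p of 0.19.

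Tgfb2, the ligand that binds poorly to the receptors without the co-receptor, had levels of 4.68, 4.13, 4.55 and 4.17 in hypoxia, against 4.96, 5.18, 5.15 and 5.05 in normoxia. All hypoxia arrays lay below all normoxia arrays, and replicates 2 and 4 of hypoxia were the lowest. The level includes rows 4901241 and 4850773, which reached the table median through normoxia alone and so had to be lower. The gap without these rows was not computed. The difference was -0.70 ± 0.15, with a 95% interval of -1.05 to -0.35 (limma, adjusted p = 0.065).

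Tgfb1, the most widely studied form and the usual driver of fibrosis, had levels of 4.13, 4.01, 4.45 and 3.90 in hypoxia, against 4.55, 5.08, 4.84 and 4.58 in normoxia. The groups were again apart, but hypoxia replicate 3 came within 0.09 of the lowest normoxia array. That gap rests in part on row 5095147, which reached the table median through normoxia alone and so had to be lower. The gap without this row was not computed. The difference was -0.64 ± 0.17, with a 95% interval of -1.03 to -0.25 (limma, adjusted p = 0.092). It shrank to -0.27 with rows at or above the 75th percentile of the table (adjusted p = 0.32) and to -0.29 with the median of rows in place of their mean (adjusted p = 0.47).

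**Figure D1:**
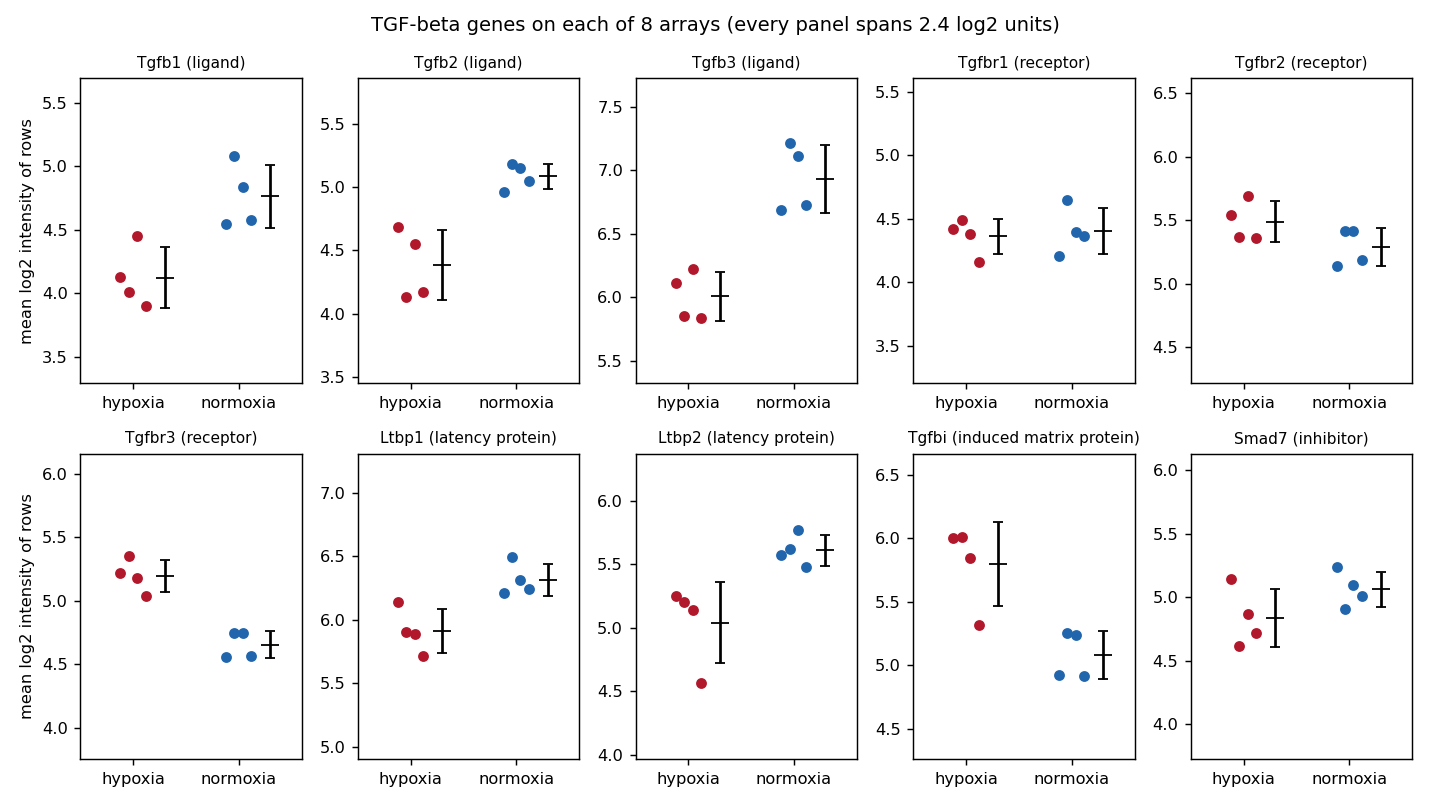
Mean log2 intensity (vertical axis) of the 10 TGF-beta genes on the 4 hypoxia arrays (red, left) and the 4 normoxia arrays (blue, right), with the mean and SD in black. The hypoxia arrays lie below all normoxia arrays for Tgfb1, Tgfb2, Tgfb3, Ltbp1 and Ltbp2 and above them for Tgfbr3 and Tgfbi, and the groups overlap for Tgfbr1, Tgfbr2 and Smad7.

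Among the receptors, Tgfbr3, or betaglycan, is a co-receptor that presents the ligands, Tgfb2 above all, to the signalling receptors. Its levels were 5.22, 5.35, 5.18 and 5.04 in hypoxia, against 4.56, 4.74, 4.74 and 4.57 in normoxia. The 4 hypoxia arrays all lay above the normoxia arrays, and both groups were tight (SD of 0.13 in hypoxia and 0.10 in normoxia). The difference was 0.54 ± 0.12, with a 95% interval of 0.28 to 0.81 (limma, adjusted p = 0.063). Tgfbr3 was called after quantile normalization (adjusted p = 0.046), cyclic loess (0.028) and centring each array (0.017, difference 0.74), but not with relative ranks within each array, the scaling of the study's own method (0.067). It was called in no fit that left out an array (adjusted p of 0.085 to 0.18).

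Tgfbr1, the type I receptor kinase, had levels of 4.41, 4.49, 4.38 and 4.16 in hypoxia, against 4.20, 4.65, 4.40 and 4.36 in normoxia. Its highest and its second lowest array were both normoxia arrays, and the difference of -0.04 ± 0.14 (limma, adjusted p = 0.87) turned positive when the arrays were rescaled (0.07 after quantile normalization, 0.13 after cyclic loess, 0.15 after centring). The 95% interval of -0.35 to 0.26 leaves out a change of the size seen in Tgfb3. Tgfbr2, the type II receptor that binds the ligand first, had levels of 5.54, 5.37, 5.69 and 5.36 in hypoxia and 5.14, 5.42, 5.42 and 5.19 in normoxia. Hypoxia replicates 1 and 3 exceeded all normoxia arrays and the other hypoxia arrays did not, and the difference of 0.20 ± 0.13 had a 95% interval of -0.10 to 0.50 (limma, adjusted p = 0.38). It was 0.13 without hypoxia replicate 3, 0.06 with median polish of the rows and 0.39 after centring, and was called in none of them.

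Both latency proteins had lower values in hypoxia. Ltbp1, which binds the latent complex covalently and anchors it in the matrix, had levels of 6.14, 5.90, 5.89 and 5.72 in hypoxia, against 6.21, 6.49, 6.31 and 6.24 in normoxia. The groups were apart by 0.07, the gap between hypoxia replicate 1 and normoxia replicate 1. The difference was -0.40 ± 0.13 (limma, adjusted p = 0.12).

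Ltbp2, a fibrillin-like relative that does not bind the latent ligand, had levels of 5.25, 5.20, 5.14 and 4.57 in hypoxia, against 5.57, 5.62, 5.77 and 5.48 in normoxia. All hypoxia arrays were below all normoxia arrays, and hypoxia replicate 4 stood far below the other hypoxia arrays. The difference was -0.57 ± 0.17 (limma, adjusted p = 0.11).

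Downstream of the receptors, Tgfbi, a secreted matrix protein named for its induction by TGF-beta, had levels of 6.01, 6.01, 5.85 and 5.31 in hypoxia, against 4.92, 5.25, 5.24 and 4.91 in normoxia. Hypoxia replicates 1 to 3 lay well above normoxia, and hypoxia replicate 4 lay only 0.06 above the highest normoxia array. The difference was 0.71 ± 0.18, a fold of 1.64, with a 95% interval of 0.30 to 1.13 (limma, adjusted p = 0.083).

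Smad7, the inhibitory Smad that blocks the type I receptor and is itself a target of the pathway, had levels of 5.15, 4.62, 4.87 and 4.72 in hypoxia and 5.24, 4.91, 5.09 and 5.01 in normoxia. Hypoxia replicate 1 lay among the normoxia arrays. The difference of -0.23 ± 0.15 (limma, adjusted p = 0.37) was close to the median of all genes. It was -0.03 after centring each array and -0.52 with the median of rows in place of their mean, and was called in neither.

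Counted over the 10 members, 1 was called lower and none higher by limma, against 0.796% and 0.531% of all genes, and 7 had an unadjusted p under 0.05 (5 lower, 2 higher), against 23.4% of all genes (20.4% lower, 3.02% higher). In 5 members all hypoxia arrays lay below all normoxia arrays, as in 14.5% of all genes, and in 2 members all lay above, as in 1.87%. The levels of Tgfb1, Tgfb2, Ltbp1, Ltbp2 and Tgfbr3 include rows that reached the table median through 1 group alone, and the counts without such rows were not made. Set against the median over all genes, the difference was -0.74 for Tgfb3, -0.51 for Tgfb2, -0.45 for Tgfb1, -0.38 for Ltbp2 and -0.21 for Ltbp1, and 0.73 for Tgfbr3 and 0.91 for Tgfbi. The narrower range of values on the hypoxia arrays moved with the groups, and its part in these differences was not tested. After quantile normalization, cyclic loess or centring, Tgfb3 kept a difference between -0.86 and -0.73, Tgfb2 between -0.61 and -0.51, Tgfb1 between -0.54 and -0.45, Ltbp2 between -0.48 and -0.38 and Ltbp1 between -0.34 and -0.21, while Tgfbi had 0.82 to 0.91.

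**Figure D2:**
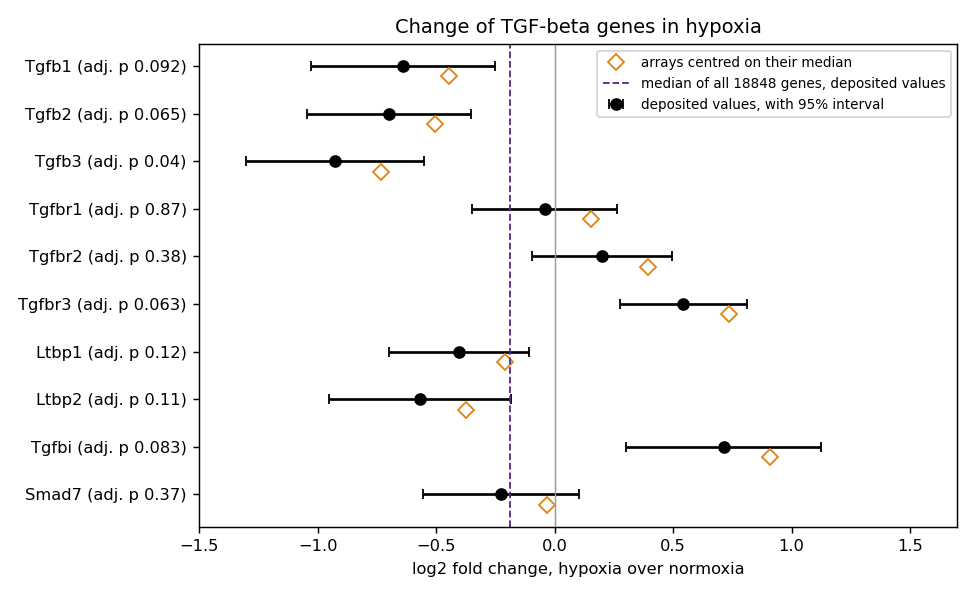
Log2 fold change (horizontal axis, hypoxia over normoxia) of each TGF-beta gene with its 95% interval (black), the same value after centring (orange diamonds) and the median of all 18848 genes (dashed line). Each array was centred on the median of its rows that named a single gene and passed the filter, not on the median of all its rows. The intervals of Tgfb1, Tgfb2, Tgfb3, Ltbp1 and Ltbp2 lie below 0 and those of Tgfbr3 and Tgfbi above it, and centring moves every gene to the right.

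Rows were then read one by one, to see whether those of a gene went together. Of the 217 rows, 205 reached the table median, and none was called on its own by limma (0.179% of all rows were). Before adjustment p was under 0.05 for 16 rows with higher and 48 with lower values. The share of all rows at this unadjusted p was not counted, so these numbers have no background to be read against. Steps modelled on the study's own method were then applied to each row. The study ranks and tests single probes, whereas the rows here are probe sets already summarized. Values were turned into ranks within each array, and the ranks of the 4 hypoxia and 4 normoxia arrays were set against each other with the rank-sum test (exact, one-sided), whose smallest p with 4 arrays against 4 is 0.0143. A row that passed at 0.05 is counted below, where 4.94% of all rows were higher and 8.15% lower in hypoxia. Among the rows of the members 19 were higher and 43 lower. In 8 of the 205 rows the mean of 1 group lay under the table median, 5 of them in hypoxia and 3 in normoxia, so these rows passed the filter through the other group.

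Of all members, Tgfb3 had the narrowest range of differences between rows. All 11 of its rows had lower values in hypoxia, between -1.36 and -0.52, and 9 of the 11 were lower by the rank-sum step. The row with the largest difference, 4944264, had 6.85, 7.40, 7.02 and 6.39 in hypoxia, against 8.18, 8.13, 8.52 and 8.25 in normoxia. The row with the smallest, 4896240, was also the most scattered, with 5.42, 3.77, 6.06 and 5.44 in hypoxia and 4.96, 7.23, 6.36 and 4.22 in normoxia. A further Tgfb3 row, 4510988, was too dim to be counted and had the opposite direction (1.18). With dim rows included the difference of the gene was -0.75 (limma, adjusted p = 0.046).

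The rows of Tgfb1 differed among themselves. Of its 8 rows 3 were lower by the rank-sum step and 2 had positive differences, and an F test of whether rows of one gene change by unequal amounts (limma diffSplice) called it, with an adjusted p of 0.0064, where 4.27% of all genes were called. Row 5095147 passed the filter on dim rows through normoxia alone, so that it had to differ, and had 1.26, 2.05, 1.87 and 1.59 in hypoxia, against 3.37, 4.49, 3.26 and 3.48 in normoxia, a difference of -1.96 ± 0.33 (limma, adjusted p = 0.068 over all rows). Its hypoxia values lay below the median of 3.06 that rows of smell and pheromone receptor genes had, and its normoxia values lay above it. Rows 4768711 and 4700619 followed with -1.57 and -1.10, also with no overlap between the groups. Row 4994299, the brightest, had 5.33, 6.14, 5.98 and 5.98 in hypoxia and 5.86, 6.49, 6.16 and 5.53 in normoxia, and its difference was -0.15 ± 0.30. Rows 5218028 and 4811074 had 0.26 and 0.33.

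The 3 Tgfb1 rows with the largest decreases were the 3 dimmest in the mean over all arrays, while the brighter rows lay between -0.59 and 0.33, and the part that dimness plays was not tested. With rows at or above the 75th percentile of the table alone, 6 Tgfb1 rows were left and the F test gave an adjusted p of 0.19. Without normoxia replicate 1 or 4 it gave 0.125 and 0.108, and the count of all genes called by it then dropped to 100 and 88, against 706 with all arrays. The remaining members were not called by this test (adjusted p of 0.16 to 0.94). No exon or position is given for these rows, since the files name no genome build.

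**Figure D3:**
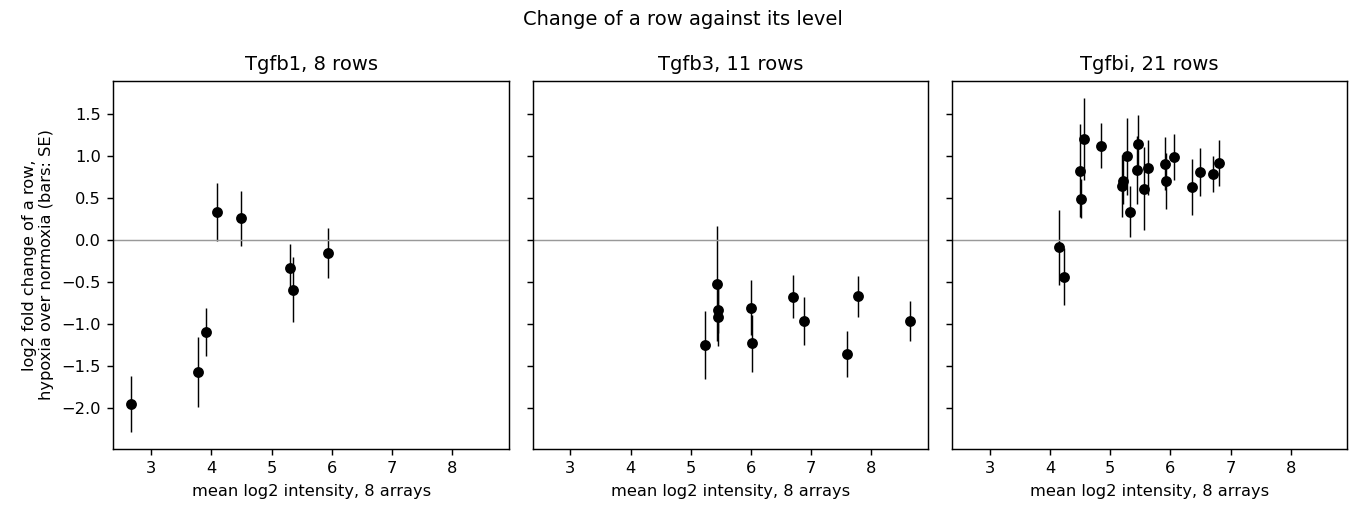
Difference of each row (vertical axis, log2, hypoxia over normoxia, bars show SE) against its mean log2 intensity over the 8 arrays (horizontal axis) for Tgfb1, Tgfb3 and Tgfbi. The 11 Tgfb3 rows lie between -1.36 and -0.52 at every level, whereas the 3 dimmest Tgfb1 rows lie between -1.96 and -1.10 and the other 5 between -0.59 and 0.33.

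Over all rows of the table that named 1 gene and passed the filter, 65.5% had negative differences. In Tgfb2, 19 of 20 did and 3 were lower by the rank-sum step, with a median of -0.61. The outlying row, 4901241, which also passed the filter through normoxia alone, had 1.74, 0.48, 4.29 and 1.57 in hypoxia and 4.88, 4.05, 4.07 and 6.02 in normoxia, and hypoxia replicate 3 overlapped with normoxia there. Row 4850773 (-0.97) passed the filter in the same way, so these rows had to be lower in hypoxia. In Tgfbr3, 18 of 20 rows had positive differences and 8 were higher by the rank-sum step. Among both counts was row 5021462, with the largest difference of the gene (1.47). It passed the filter through hypoxia alone, so that it had to be higher. The Tgfbr3 row 4810003 had 4.79, 4.94, 4.28 and 4.65 in hypoxia, against 3.56, 3.06, 2.99 and 3.47 in normoxia, a difference of 1.39 with no overlap.

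In Tgfbi, 19 of 21 rows had positive differences and 10 were higher by the rank-sum step, with a median of 0.81. Row 4577337 had 5.90, 5.33, 5.02 and 5.40 in hypoxia, against 4.24, 4.42, 4.47 and 4.01 in normoxia, again with no overlap. The 2 rows with negative differences (-0.44 and -0.08) were the 2 dimmest of the gene.

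The latency proteins have the most rows. In Ltbp1, 39 of 44 rows had negative differences, 14 were lower and 1 higher by the rank-sum step (that 1 row passed the filter through hypoxia alone), and in Ltbp2, 44 of 47 rows had negative differences and 11 were lower. Of the Ltbp2 rows, 4411775 and 5192443 passed the filter through normoxia alone and had to be negative. Row 5281263 passed it through hypoxia alone and had to be positive. The medians of Ltbp1 and Ltbp2 were -0.45 and -0.54. In Smad7 the rows ran from -1.08 to 0.56 with 2 lower, in Tgfbr1 from -0.80 to 0.65 with 1 lower, and in Tgfbr2 from -0.18 to 0.96 with none in either direction.

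**Figure D4:**
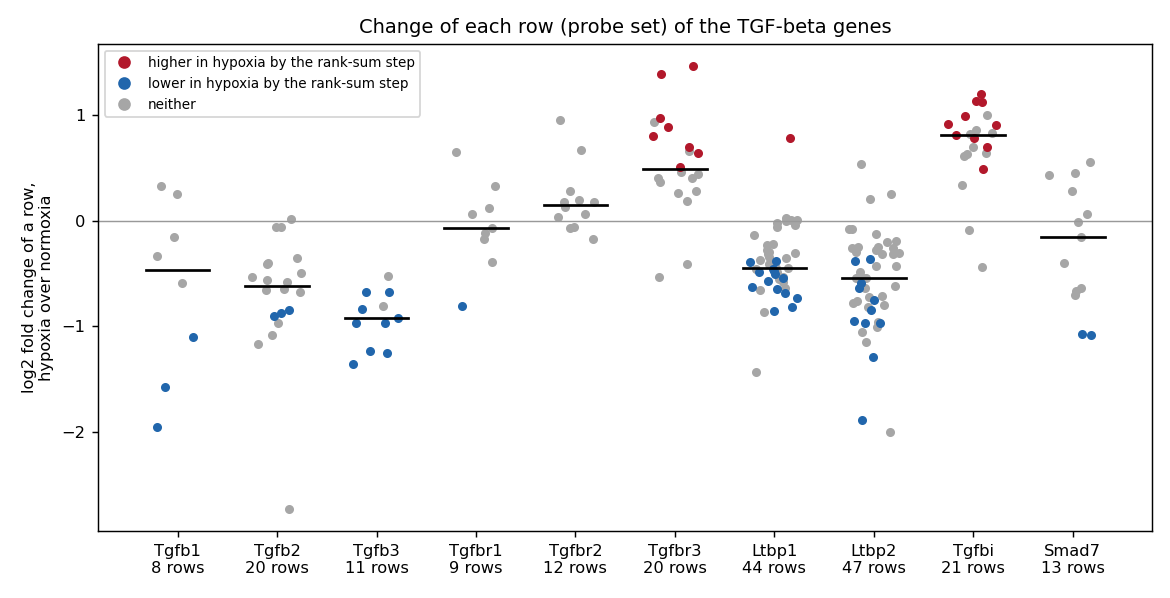
Log2 fold change (vertical axis, hypoxia over normoxia) of each of the 205 rows, by gene, with the median as a black line. Rows that were higher in hypoxia by the rank-sum step (red, 19) lie in Tgfbr3, Tgfbi and 1 row of Ltbp1, and rows that were lower (blue, 43) lie mainly in the ligands and latency proteins, with 9 of 11 in Tgfb3.

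The genes whose profile over the 8 arrays was most like that of Tgfb3, by the root mean square difference of profiles centred on their own mean, were H1f4, a linker histone (0.11 on the log2 scale), Pold2, a subunit of DNA polymerase delta (0.12), and Rad9a, a part of the DNA damage checkpoint clamp (0.13). All 3 were called lower in hypoxia, by -0.89, -0.86 and -0.73 (limma, adjusted p = 0.025, 0.021 and 0.044). The profiles were matched over the arrays of both groups, so lower values in hypoxia were fixed by this choice. H1f4 rests on 3 rows and belongs to a family of closely related histone genes, so its value is uncertain.

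Few other genes of the pathway were called. Of 110 genes in 5 lists, 104 were measured, 1 was called higher and 1 lower, against 0.531% and 0.796% of all genes, and their median difference was -0.15 beside -0.19 for all genes. Both called genes belong to a list of 30 genes linked to TGF-beta and Smad3 signalling, of which 28 were measured. The list is mixed, since it also holds Id1 and Id3, known mainly as BMP targets (-0.41 ± 0.21 and -0.27 ± 0.20, neither called). Before adjustment p was under 0.05 for 2 genes with higher and 9 with lower values in this list, beside 3.02% and 20.4% of all genes, and its median was -0.23.

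Tagln, or transgelin, an actin-binding protein of contractile cells, had levels of 7.06, 6.82, 6.98 and 7.12 in hypoxia, against 7.59, 7.73, 7.75 and 7.56 in normoxia. The groups were well apart, and the difference was -0.66 ± 0.12 (limma, adjusted p = 0.04). Bhlhe40, a transcriptional repressor that is also a known hypoxia-inducible gene, had 5.58, 5.89, 5.61 and 5.70 in hypoxia, against 5.02, 5.23, 4.95 and 4.77 in normoxia, a difference of 0.70 ± 0.14 (limma, adjusted p = 0.046). Like that of Tgfb3, both calls were lost whenever 1 array was left out (adjusted p of 0.065 to 0.15 for Tagln and 0.058 to 0.16 for Bhlhe40).

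The brightest genes of the list that were not called were Fn1, fibronectin, Acta2, smooth muscle actin, and Ccn2, connective tissue growth factor. Fn1 averaged 10.51 ± 0.11 in hypoxia and 10.54 ± 0.06 in normoxia (SD, n = 4 each), a difference of -0.03 ± 0.11. Acta2 had 10.02, 10.14, 10.12 and 10.12 in hypoxia, against 10.66, 10.64, 10.53 and 10.53 in normoxia, with no overlap and a difference of -0.49 ± 0.10 (limma, adjusted p = 0.057). Ccn2 differed by -0.42 ± 0.14 (limma, adjusted p = 0.12). Beside Tagln and Acta2, 4 of 8 muscle markers were lower at an unadjusted p under 0.05, where 20.4% of all genes were. The summed linear level of those markers was 173 to 202 in hypoxia and 245 to 270 in normoxia, and its part in the values of Tagln and Acta2 was not tested.

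Among 20 genes of latency and activation none was called (before adjustment, 2 were higher and 3 lower with p under 0.05, beside 3.02% and 20.4% of all genes). The brightest were Thbs1, thrombospondin 1, an activator of the latent complex (-0.11 ± 0.11), the integrin subunit Itgb1 (-0.14 ± 0.11) and the membrane protease Mmp14 (-0.10 ± 0.15), and all 3 turned positive when each array was centred. Among 23 Smads and inhibitors none was called, and before adjustment 6 of the 23 were lower and none higher with p under 0.05, a share near the 20.4% of all genes that were lower. Tgfb1i1, a focal adhesion protein, differed by -0.43 ± 0.12 (limma, adjusted p = 0.098), Tgif1, a corepressor of Smads, by -0.43 ± 0.13 (adjusted p = 0.12) and Pmepa1, which holds back Smad signalling, by -0.34 ± 0.12 (adjusted p = 0.15).

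Among 12 related receptors none was called and 1 was lower at an unadjusted p under 0.05, beside 20.4% of all genes. Cd109, a co-receptor, differed by 0.34 ± 0.17 and overlapped between the groups, and the BMP receptors Bmpr2 and Bmpr1a by -0.05 ± 0.13 and -0.13 ± 0.15, both positive once each array was centred. Of 25 related ligands and antagonists 21 were measured and none was called. Before adjustment 1 was higher and 2 lower with p under 0.05, beside 3.02% and 20.4% of all genes. Inhba, the activin A subunit, differed by -0.30 ± 0.11 (limma, adjusted p = 0.15), Fstl1, a follistatin-like protein, by 0.13 ± 0.10 and Bmp1, a procollagen protease, by -0.15 ± 0.15, and the last turned positive on centring.

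**Figure D5:**
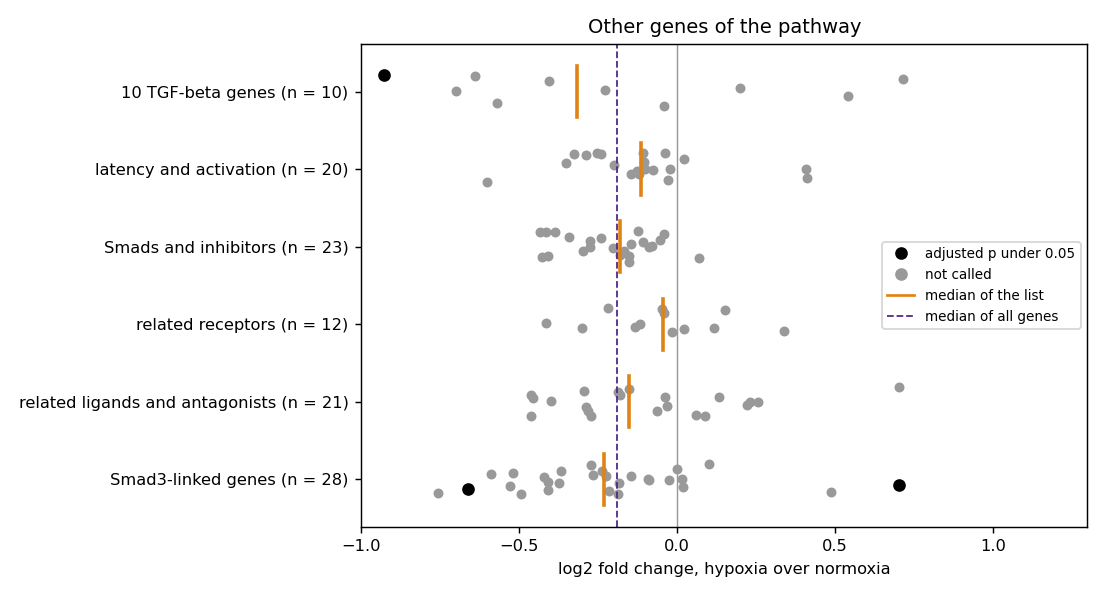
Log2 fold change (horizontal axis, hypoxia over normoxia) of the 10 TGF-beta genes and of 5 lists of other genes of the pathway, with called genes in black, the median of each list in orange and the median of all genes as a dashed line. Called genes are Tgfb3 among the 10 and Tagln and Bhlhe40 among the Smad3-linked genes, and the medians of the 5 lists lie between -0.23 and -0.04.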

How the data were processed

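The deposited table held linear signal intensity per probe set; the authors' background correction and normalization were not given in the sources used here. Array medians (2.38 to 2.44 on the log2 scale) differed little, so log2 intensity was used as deposited, with no pseudocount. Of 641130 rows, 307991 (48.0%) named 1 gene in the platform annotation, 7047 several and 326092 none; of 21842 symbols 17794 were current in RefSeq (GRCm38.p6), 3985 matched as older names and 63 stayed unmatched. Rows with a mean at or above 2.35 (191376, a median of 7 per gene) entered the gene means.

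Hypoxia was set against normoxia with limma 3.58.1 in R 4.3.3 (two-sided, no covariate, adjustment over all genes, rows or F tests); the fits were checked on simulated data. Promoters, rank steps and figures used Python 3.11.15 and matplotlib 3.10.9. The members and lists were chosen with earlier results of these data known. Named genes were the members, called genes and the 3 brightest uncalled genes of each pathway list, the hypoxia checks, and the 3 profiles nearest to a called member. Krt19 and single rows were named after their values were seen. The number of arrays limits precision, no batch was given, and the array has no depth in counts.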

Additional observations from a re-analysis of the deposited data

Results flagged for a closer look

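Within 1 group, 1 array stood far from the others: Ltbp2 in hypoxia replicate 4 was at 4.57 on the log2 scale, whereas the other hypoxia arrays lay between 5.14 and 5.25. The gap was 0.837 of the range of the group, above Dixon's 95% critical value for 4 samples. The 10 members in 2 groups gave 20 such tests, of which chance alone flags about 1. Without that array the Ltbp2 difference was -0.41 (limma, adjusted p = 0.15).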

How the results depend on the processing

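The signs of 9 members held under all 19 alternatives; that of Tgfbr1 did not. Tgfb3 was called under 7, Tgfbr3 under 5 and Tgfb2 under 3. Among the members 1 gene was called higher (none in the reported fit) after quantile normalization, cyclic loess or centring, without the filter on dim rows, and with an intensity trend and robust eBayes. The number called lower (1) was 0 with relative ranks, centring, the median of rows or the replicate block, 2 without the filter, with trend and robust eBayes or with array weights, and 0 to 0 leaving out an array. In the pathway lists the number called higher (1) was 2 with cyclic loess, centring or trend and robust eBayes and 0 with ranks, the median of rows or the block, and 0 to 0 leaving out an array; the number called lower (1) was 2 with cyclic loess, no filter or the 75th percentile, 4 with trend and robust eBayes, 0 with ranks, centring or the block, and 0 to 0 leaving out an array. Single rows of members were called under trend and robust eBayes (1 higher, 7 lower) and 1 higher with the 75th percentile. Unequal rows were called in 3 members with ranks, in 0 with the 75th percentile, and in 0 to 3 leaving out an array.

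The difference turned positive for Tgfbr1 after quantile normalization (0.0696), cyclic loess (0.127), centring (0.151), no filter (0.0205) and median polish (0.0427), with ranks (1.46 rank points), and without hypoxia replicate 4 or normoxia replicate 2 (-0.109 to 0.0395 leaving out an array); for Bmpr2 after quantile normalization (0.0347), cyclic loess (0.0913) and centring (0.147), and without the same arrays (-0.109 to 0.0248 leaving out an array); for Bmpr1a after cyclic loess (0.0177) and centring (0.0598); for Itgb1 with ranks (0.202 rank points) and centring (0.0495); for Fn1 with centring (0.167) and without hypoxia replicate 4 (0.0282; -0.0527 to 0.0282 leaving out an array); and with centring for Thbs1 (0.0884), Mmp14 (0.0939) and Bmp1 (0.0428). The causes were not tested.

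Calls over all genes (100 higher, 150 lower) became 126 and 53 after quantile normalization, 146 and 34 after cyclic loess, 163 and 17 after centring, 40 and 18 with ranks, 142 and 417 with trend and robust eBayes, and at least 54 and 7 leaving out an array; the median of all genes moved to -0.11, -0.05 and 0.003 under the first 3. Same-numbered arrays of the groups correlated at 0.07, -0.12, 0.05 and -0.0056 in their deviations. These values show no pairing by number, but with 4 arrays a group they cannot exclude it. With the replicate block 34 genes were called higher and 3 lower, and Tgfb3 had an adjusted p of 0.14. With 4 arrays a group, members that missed the threshold are not shown to be unchanged.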
